A study of Mus musculus with 14 samples.

Results

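Mbp, Pmp22, Sox10 and S100b, 4 genes commonly used to mark Schwann cells and myelin, were followed in RNA-seq libraries of mouse retinal pigment epithelium (RPE), the pigmented cell layer behind the photoreceptors. The genes were chosen by symbol, and all 4 were found among the 42687 genes of the count table and read in all 14 libraries. The study deleted Clic4, a chloride intracellular channel protein gene, in the RPE, and the question put to these genes was whether their level differed between KO and control RPE. KO mice were Best1-Cre+/-; Clic4f/f and were compared with a different control in each of 3 sets that shared no library. The WT set held 3 C57BL/6J wild-type and 3 KO libraries, the Ctrl set 2 Clic4f/f littermate (Ctrl) and 2 KO libraries, and the CreCtrl set 2 Best1-Cre+/- (CreCtrl) and 2 KO libraries. All mice were 3 months old, and a library came from the RPE of both eyes of a mouse. The Best1 promoter drives Cre in the RPE, so other cells in the preparation keep Clic4. After hyaluronidase, removal of the retina and trypsin, the loosened RPE cells were shaken off the eyecup, and cells of choroid, nerve or retina can come along. Ctrl mice carry the floxed alleles without Cre, CreCtrl mice carry Cre without the floxed alleles, and WT mice carry neither.

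Mbp encodes myelin basic protein, which holds the inner faces of the myelin membrane together in both Schwann cells and oligodendrocytes, and the same locus also gives golli transcripts outside myelin. Pmp22 encodes peripheral myelin protein 22, a membrane protein of compact peripheral nerve myelin that fibroblasts and epithelia also express. Sox10 encodes a transcription factor of the neural crest lineage that Schwann cells, melanocytes and oligodendrocytes require, and it acts upstream of Egr2 and myelin genes. S100b encodes a calcium-binding protein of glia that is widely used to stain Schwann cells. Ciliary nerves with Schwann cells run through the choroid and sclera next to the RPE, while the mouse retina inside the eye holds no myelin. A gene count in bulk RNA cannot tell fewer cells of a type from less RNA per cell.

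In GRCm38, Pmp22 (ENSMUSG00000018217) lies on chromosome 11 from 63128982 to 63159547 on the plus strand with 2354 exonic bases. Sox10 (ENSMUSG00000033006) lies on chromosome 15 from 79154908 to 79165240 on the minus strand with 3051 exonic bases, and S100b (ENSMUSG00000033208) lies on chromosome 10 from 76253853 to 76261159 on the plus strand with 1484 exonic bases. S100b overlapped Dip2a on the other strand with 0 shared exonic bases. All 4 genes are protein-coding, and the position of Mbp is given with its values.

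The sequence upstream of the transcription start is shown for S100b, the member that fell furthest in KO RPE, and for Pmp22, which did not pass the test in any set. RefSeq (GRCm38.p6) promoter entries were used for 2 of the 4 members. Each run below is the plus strand, 5′ to 3′, and ends at the base before an annotated start. Capitals mark CCAAT boxes, CCAAT or its reverse complement ATTGG. Pmp22 is known to start at alternative first exons, one of them used mainly in myelinating Schwann cells, and a gene count adds all of them, so the runs before its first and second annotated starts are both given.
S100b, chr10:76253586-76253835: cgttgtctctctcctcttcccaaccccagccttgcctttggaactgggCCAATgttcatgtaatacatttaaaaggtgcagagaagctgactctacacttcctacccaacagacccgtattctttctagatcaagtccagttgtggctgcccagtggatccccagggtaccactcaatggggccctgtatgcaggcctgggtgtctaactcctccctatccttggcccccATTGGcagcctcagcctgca
Pmp22 first start, chr11:63128732-63128981: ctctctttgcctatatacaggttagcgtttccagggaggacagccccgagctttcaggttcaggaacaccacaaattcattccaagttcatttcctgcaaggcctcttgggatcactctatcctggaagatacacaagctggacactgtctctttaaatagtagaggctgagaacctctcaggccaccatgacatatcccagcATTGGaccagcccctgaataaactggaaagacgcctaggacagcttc
Pmp22 second start, chr11:63131207-63131456: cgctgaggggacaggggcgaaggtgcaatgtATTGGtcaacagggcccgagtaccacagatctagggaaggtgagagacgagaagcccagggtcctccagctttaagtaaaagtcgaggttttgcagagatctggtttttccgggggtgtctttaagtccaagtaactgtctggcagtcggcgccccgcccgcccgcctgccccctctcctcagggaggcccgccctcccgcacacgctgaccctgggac
The S100b run held 2 CCAAT boxes and each Pmp22 run shown held 1, the other two annotated Pmp22 starts, which are not shown, held 0, and 33.8% of all 32851 RefSeq promoters of the same 250 bases held at least 1. The first Pmp22 run was 48.8% GC and the second 61.2% GC, with 64.8% and 73.6% before the starts not shown, against 53.6% for S100b and a median of 52.4% over all promoters. The core letters bound by SOX factors, ACAAAG or ACAATG on either strand, had 0 matches in these runs, while 25.2% of all promoters held a match. The CCAAT box was chosen for display after the sequences were seen, and a match or its absence says only whether these letters lie in the window.

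The libraries held between 9828293 and 32384166 counts in genes. WT libraries were the shallowest, with at most 12363580 counts, and KO libraries had at least 16040454. Levels are given as CPM, counts relative to the library total, scaled by TMM, the trimmed mean of M-values, which corrects for a few abundant genes taking up reads. Within a set the TMM factors of that set were used, as in its test, and across sets those of all 14 libraries. A pair of control libraries stood apart. Ctrl replicate 2 had a summed level of 719 CPM over 26 other Schwann cell and myelin genes, against at most 217 CPM in any other library, and 146 CPM over 4 melanocyte genes, against at most 43.4. Of the 719 CPM, 479 came from Mal alone, a myelin gene that epithelia also express. CreCtrl replicate 2 had 4613 CPM over 8 rod photoreceptor markers, against at most 1883 in any other library. Clic4 was lower in every KO library than in every control of its set, from 240 to 248 CPM in WT and from 17.9 to 32.6 in KO, from 59.4 to 69.1 in Ctrl and from 9.39 to 32.6 in KO, and from 86.4 to 108 in CreCtrl and from 13.2 to 30.4 in KO. A gene was called when its Benjamini-Hochberg adjusted p over all genes tested, from the quasi-likelihood test of edgeR, was under 0.05 and its fold change above 1.5. By that rule 31.7% of genes were called between KO and WT, 0% between KO and Ctrl, 15.6% between KO and CreCtrl, and 26% over the 3 sets.

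The levels of the 4 genes differed widely. Per kilobase of exon, on the scale of the 14 libraries, the median level was 146 CPM per kb for Sox10, 129 for Pmp22, 8.65 for Mbp and 4.31 for S100b. Pmp22 was the steadiest, with a highest level 1.62 times its lowest, against 4.37 times for Sox10 and 7.44 times for Mbp. S100b ranged from 0.124 CPM in a KO library of the CreCtrl set, where it rested on 3 counts, to 76.1 CPM in a WT library. The exonic bases are those of all annotated isoforms joined, so the level per kb of Mbp, with its long unshared exons, is a low estimate for any single transcript.

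The label of the 4 genes as Schwann cell and myelin genes was checked against other genes of those cells. Several of their defining genes were at or near 0, while others were present. Pmp2, a fatty acid carrier of peripheral myelin, was at 0 in all 14 libraries. It shares 1224 exonic bases with the protein-coding gene Gm37389 on the same strand, so this count is less certain. Ncmap, a myelin membrane protein, and Gjb1, a gap junction protein of Schwann cells, stayed at or under 1.46 and 1.29 CPM. Of the oligodendrocyte genes, Mog, Opalin and Olig2 were at 0 in all 14 libraries and Olig1 in 12. Counts of 0 here allow up to 3 counts, which is from 0.0926 to 0.305 CPM by library, and cover counting error only. Other listed genes of these cells were present on the scale of the 14 libraries. Of the Schwann cell genes, Cdh19 was at 5.42 to 26.9 CPM in all libraries. Egr2, Prx and Erbb3 reached 67.2, 35.2 and 53.1 CPM. Of the oligodendrocyte genes, Cldn11 reached 18.1 CPM and Mobp had a median of 5.69 CPM. The genes on both sides of this check were picked after their values were seen. Sox10 had at least 173 CPM everywhere. The 4 genes are therefore described one by one, not as a measure of one cell type.

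**Figure D1:**
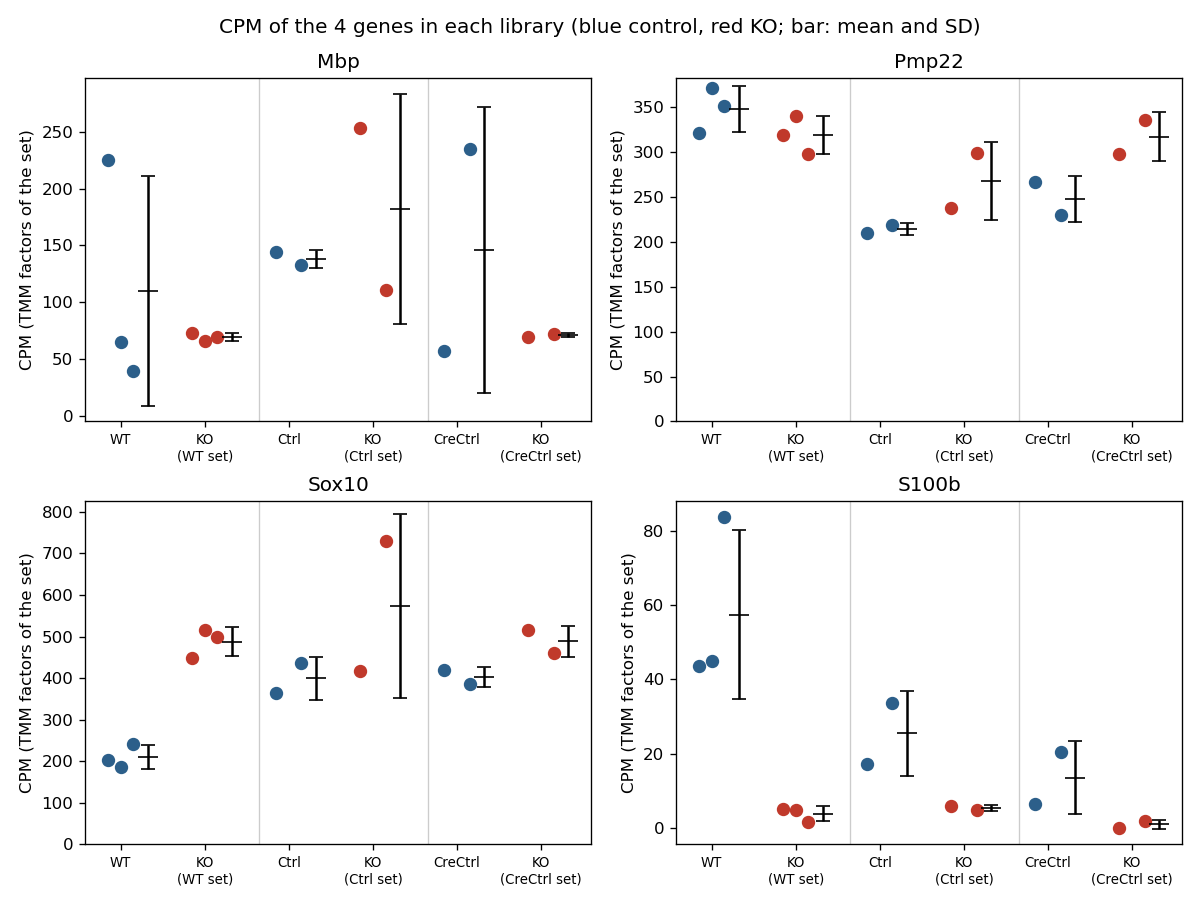
Each panel plots the CPM of a gene in every library, scaled by the TMM factors of its set, with control libraries in blue and KO libraries in red; the black bar is the group mean ± SD (n = 3 in the WT set, n = 2 in the others). S100b was lower in every KO library than in every control of its set, Sox10 of the WT set rose from 187 to 242 CPM in WT to 449 to 515 CPM in KO, and Mbp spread most within the WT, CreCtrl and Ctrl-set KO groups.

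S100b was lower in every KO library than in the controls of its set, and it fell, by the call rule, against WT and against CreCtrl. In the WT set S100b was at 43.6, 44.9 and 83.7 CPM in the WT libraries and at 5.15, 4.94 and 1.54 CPM in the KO libraries. In the Ctrl set it was at 17.3 and 33.5 CPM in Ctrl and at 5.95 and 4.82 CPM in KO. In the CreCtrl set it was at 6.58 and 20.5 CPM in CreCtrl and at 0.119 and 1.84 CPM in KO. No KO library reached a control of its own set, which was so for 28.3% of all genes tested with WT controls, 22.7% with Ctrl and 36.8% with CreCtrl, so the separation alone was common.

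The S100b mean was 57.4 ± 22.8 CPM in WT (SD, n = 3) and 3.87 ± 2.03 in KO (SD, n = 3), a log2 fold change of −3.89 (SE 0.48, adjusted p = 4.07e-04 by edgeR). Genes called lower made up 17.6% of those tested in this comparison. Against Ctrl the change was −2.24 (SE 0.43), with an edgeR adjusted p of 0.118, and in this comparison edgeR called 0 genes while 12.1% had an unadjusted p under 0.05. DESeq2 called 1094 genes lower and 17 higher in the same libraries, and gave S100b an adjusted p of 3.56e-04. Against CreCtrl the change was −3.75 (SE 0.97, adjusted p = 0.0440 by edgeR), where 12.2% of genes were called lower. That call rested on CreCtrl replicate 2, the library high in rod markers, since without it the change was −2.78 with an edgeR adjusted p of 0.132, and DESeq2 gave 0.0682. The lowest S100b library, KO replicate 1 of the CreCtrl set, held 3 counts, with an exact 95% Poisson interval of 0.0246 to 0.349 CPM that covers counting error only.

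Over the 3 sets, with the set as a covariate, S100b fell by 3.30 on the log2 scale (SE 0.49, adjusted p = 3.27e-04 by edgeR, n = 14), where 15.7% of genes were called lower. An exact two-sided permutation test of the within-set difference gave p = 0.00278, the smallest value its 720 relabellings allow. Without the WT set the change was −2.97 with an edgeR adjusted p of 0.0551.

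Sox10 rose in KO RPE against WT and was not called against the other controls. The WT libraries had 203, 187 and 242 CPM and the KO libraries of that set 449, 515 and 499 CPM, and the groups did not overlap, as for 23.8% of genes tested in that direction. The mean was 211 ± 28.3 CPM in WT and 488 ± 34.3 in KO (SD, n = 3 each), a log2 fold change of 1.21 (SE 0.14, adjusted p = 2.93e-04 by edgeR), where 14.1% of genes were called higher. Ctrl libraries had 363 and 436 CPM and KO libraries of that set 417 and 730, so these groups overlapped, and the change was 0.52 (SE 0.34, edgeR adjusted p = 0.715). CreCtrl libraries had 419 and 386 CPM and KO libraries of that set 515 and 461, which did not overlap, as for 34.9% of genes, and the change was 0.28 (SE 0.18, edgeR adjusted p = 0.282) with a 95% interval from −0.14 to 0.69, where 3.46% of genes were called higher.

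Over the 3 sets Sox10 rose by 0.82 on the log2 scale (SE 0.18, adjusted p = 0.00365 by edgeR), where 10.3% of genes were called higher, and the exact two-sided permutation p was 0.00556. Without the WT set the change was 0.41 with an edgeR adjusted p of 0.208, and with scaling by library size alone it was 0.55, under the 1.5-fold limit, with an adjusted p of 0.0167. The KO effect on Sox10 in the WT set exceeded that in the CreCtrl set by 1.04 (SE 0.30, unadjusted p = 0.00427, edgeR adjusted p = 0.109) and that in the Ctrl set by 0.83 (SE 0.30, unadjusted p = 0.0160, adjusted p = 0.128), and neither difference passed the test over all genes. Such a difference between sets was called for 1.49% and 5.15% of genes.

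Mbp (ENSMUSG00000041607; GRCm38, chromosome 18 from 82475146 to 82585637, plus strand, 8469 exonic bases) was not called in any set, and its spread came from single libraries. The gene overlaps the pseudogene Rpl21-ps8 on the other strand with 0 shared exonic bases. The WT libraries had 225, 64.8 and 39.0 CPM, and the KO libraries of that set 72.8, 65.9 and 69.5 CPM. Ctrl libraries had 144 and 133 CPM and their KO libraries 254 and 110. CreCtrl libraries had 57.2 and 235 CPM and their KO libraries 69.8 and 72.3. In each set the KO and control ranges overlapped, with 1 library above 200 CPM in each, a control in the WT and CreCtrl sets and a KO library in the Ctrl set.

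The log2 fold change of Mbp was −0.66 (SE 0.54, edgeR adjusted p = 0.394) against WT, 0.39 (SE 0.41, adjusted p = 0.861) against Ctrl and −1.04 (SE 0.54, adjusted p = 0.201) against CreCtrl. Over the 3 sets it was −0.40 with a 95% interval from −1.24 to 0.44 (edgeR adjusted p = 0.464), and the exact permutation p was 0.717. The direction turned when the high library of a set was left out. It was 0.42 against WT without WT replicate 1, −0.33 against Ctrl without KO replicate 1 of that set, and 0.28 against CreCtrl without CreCtrl replicate 2. Without CreCtrl replicate 1 it was −1.73 with an edgeR adjusted p of 6.54e-04, which would be a call.

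Pmp22 was not called in any set either. WT libraries had 321, 372 and 352 CPM and the KO libraries of that set 319, 340 and 298 CPM. Ctrl libraries had 210 and 219 CPM against 237 and 299 in KO, and CreCtrl libraries had 266 and 230 against 298 and 337 in KO. The KO libraries lay above both controls in the Ctrl and CreCtrl sets, as for 18.3% and 34.9% of genes, and overlapped them in the WT set. The log2 fold change was −0.13 (SE 0.12, edgeR adjusted p = 0.466) against WT, 0.32 (SE 0.23, adjusted p = 0.762) against Ctrl and 0.35 (SE 0.18, adjusted p = 0.179) against CreCtrl. Over the 3 sets it was 0.21 with a 95% interval from −0.01 to 0.43 (edgeR adjusted p = 0.133), while the exact permutation p for this gene alone was 0.0278. With scaling by library size alone the change over the 3 sets was −0.06, so no direction is given for Pmp22.

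**Figure D2:**
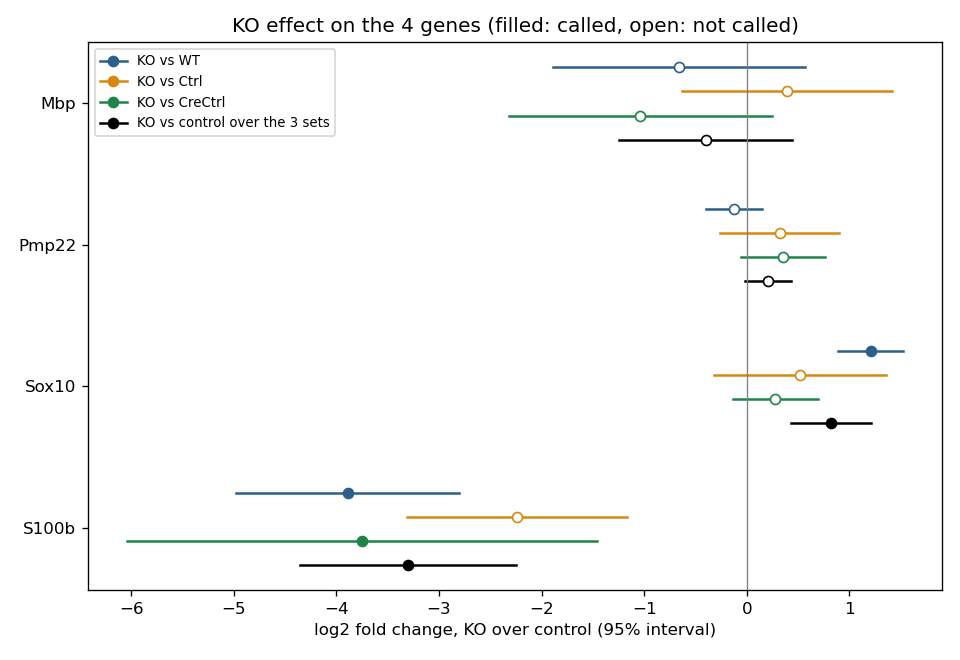
The horizontal axis is the log2 fold change of KO over control with its 95% interval, for the 4 genes in each set and over the 3 sets; filled points were called and open points were not. All intervals of S100b lie below 0, from −3.89 against WT to −2.24 against Ctrl, and all intervals of Mbp and Pmp22 include 0.

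The differences between genes were also read as ratios within a library, which do not depend on the scaling. The log2 ratio of Sox10 to S100b was higher in KO by 5.18 than in WT, by 2.62 than in Ctrl and by 4.42 than in CreCtrl, a mean of 4.07 (exact two-sided permutation p = 0.00278, adjusted over 6 pairs 0.00556). The ratio of Pmp22 to S100b was higher by a mean of 3.60 and that of Mbp to S100b by 3.19, each with the same exact p and adjusted value. The ratio of Pmp22 to Sox10 was lower by a mean of 0.47 (exact p = 0.0361, adjusted 0.0542), with −1.34 against WT, −0.16 against Ctrl and 0.08 against CreCtrl. The ratios of Mbp to Sox10 and of Mbp to Pmp22 differed by −0.88 and −0.41 (exact p = 0.128 and 0.447).

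Across the 6 groups, on the scale of the 14 libraries, S100b had the order KO of the CreCtrl set (0.983 ± 1.22 CPM), KO of the WT set (3.96 ± 2.098), KO of the Ctrl set (5.60 ± 0.837), CreCtrl (13.5 ± 9.75), Ctrl (26.5 ± 12.1) and WT (52.8 ± 20.2). All 3 KO groups thus lay below all 3 control groups, and WT did not overlap Ctrl. Sox10 had the order WT (194 ± 23.8), CreCtrl (401 ± 25.6), Ctrl (415 ± 56.6), KO of the WT set (496 ± 37.8), KO of the CreCtrl set (499 ± 50.8) and KO of the Ctrl set (596 ± 229). The step from WT to CreCtrl was larger than the spread, whereas CreCtrl overlapped Ctrl and the KO groups overlapped each other. The highest Ctrl library (455 CPM) and the lowest KO library of the WT set (457 CPM) were nearly equal.

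Pmp22 differed in steps smaller than the spread, with overlapping neighbours, from Ctrl (223 ± 8.54 CPM) through CreCtrl (248 ± 27.2) and KO of the Ctrl set (279 ± 44.6) to WT (321 ± 22.9), KO of the CreCtrl set (324 ± 19.7) and KO of the WT set (325 ± 26.8). Mbp ran from 70.6 ± 3.07 CPM in KO of the WT set and 72.5 ± 0.0605 in KO of the CreCtrl set to 189 ± 106 in KO of the Ctrl set, and every pair of neighbours in that order overlapped. The means are over 3 libraries in the WT set and 2 in the others, and the sets were compared here without a test.

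The marker genes of other cells moved with the groups too, and their part in the changes of the 4 genes was not tested. The summed level of 10 fibroblast markers, among them Dcn and Lum of the collagen matrix, was from 7589 to 7681 CPM in WT and from 338 to 811 in KO, with 10 of 10 called lower. It was from 1344 to 2477 CPM in Ctrl and from 259 to 416 in KO (0 called), and from 1415 to 2707 in CreCtrl and from 392.2 to 470 in KO (8 called lower). The median log2 fold change of these markers was −4.16, −2.94 and −3.37 in the 3 sets, against −0.08, 0.01 and −0.02 over all genes. The 10 RPE markers, among them the visual cycle genes Rpe65 and Rlbp1, summed to 15115 to 22402 CPM in WT and 71864 to 80356 in KO, with 8 called higher. They summed to 45725 to 45995 in Ctrl against 70333 to 72704 in KO (0 called), and to 48956 to 56488 in CreCtrl against 70257 to 76139 in KO (1 called higher). Of 10 endothelial markers, such as Pecam1 and Cdh5, 9 were called lower against WT, 0 against Ctrl and 8 against CreCtrl. The counts were 9, 0 and 8 for the 10 myeloid markers, such as Ptprc. Against Ctrl, 8 of these 10 markers were higher in KO, with a median log2 fold change of 0.24. The myeloid marker not called against WT was Csf1r, which rose by 0.52 (edgeR adjusted p = 0.00743), under the 1.5-fold limit. The 8 rod markers were all called lower against CreCtrl and 0 were called against WT or Ctrl.

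Sox10 followed the summed RPE markers over the libraries. Its log2 CPM had a correlation of 0.94 with their summed level over the 14 libraries, which share the group differences, and 0.34 once group means were removed. The oligodendrocyte sum had 0.94 and 0.32, and that of Muller cell and astrocyte genes 0.88 and 0.36. Most of these sums came from single genes, Ermn (median 673 CPM) and Glul (median 2021 CPM). Glul had a correlation of 0.89 with Sox10 over the 14 libraries, and Aldh1l1 had 0.94. Mobp, Cldn11 and Hapln2 had −0.32, −0.75 and 0.07. Gfap, Aqp4, Slc1a3 and Kcnj10 had −0.12, −0.21, 0.07 and −0.35. The link was thus shared by single genes of these lists, not by the lists as a whole. Of the single RPE markers only Best1 ran against Sox10 (r = −0.70 over the 14 libraries). Relative to the RPE marker sum of the same library, the log2 ratio of Sox10 was lower in KO than in WT by 0.68, and it was lower by 0.17 against Ctrl and by 0.16 against CreCtrl. These ratios were added after the values were seen and have no test. Sox10 thus rose against WT by less than the RPE markers, whose median log2 fold change was 1.57. The 4 melanocyte genes other than Sox10 (Kit, Mc1r, Ednrb and Pax3) summed to between 17.4 and 43.4 CPM in 13 libraries and to 146 CPM in Ctrl replicate 2. Mc1r was under 1 CPM in all libraries and Pax3 at 0 in 8. Kit, a receptor that melanocytes share with other cells, rose against WT by 1.13 (SE 0.23, edgeR adjusted p = 0.00524), while the endothelin receptor gene Ednrb fell against WT by 3.35 (SE 1.07, adjusted p = 0.0390) and against CreCtrl by 1.92 (SE 0.38, adjusted p = 0.0216). Ermn, a cytoskeletal protein gene known from oligodendrocytes, was also high, from 98.9 to 1067 CPM, and had a correlation of 0.95 with Sox10, with 0.46 after removal of group means; it shares 237 exonic bases with Galnt5 on the other strand. The 3 genes most like Sox10 over the 14 libraries, of 17662 genes, were Gnao1 (r = 0.98), Coro2b (r = 0.98) and Car10 (r = 0.97), and r of their deviations from the group means was 0.86, 0.87 and 0.76.

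S100b ran against the RPE markers and along with markers of several other cells. Its correlation with the RPE sum was −0.75 over the 14 libraries, and 0.27 after removal of group means. Of the single RPE markers only Best1 had a positive correlation with S100b over the 14 libraries (r = 0.63). Its correlation with the fibroblast sum was 0.81 over the 14 libraries, and 0.33 after removal of group means. Relative to the fibroblast marker sum, S100b was higher in KO than in WT by 0.22 on the log2 scale, higher by 0.33 than in Ctrl, and lower by 1.92 than in CreCtrl, where KO replicate 1 had 3 counts. In the WT and Ctrl sets these ratios overlapped between KO and control libraries, and they have no test. S100b correlated with Lum at 0.91 and with Egr2 at 0.87, and the 3 genes most like it were Slc4a8 (r = 0.98), Lsamp (r = 0.97) and Parp14 (r = 0.96), with 0.90, 0.90 and 0.78 for the deviations from the group means. Pericyte and smooth muscle markers, with a sum from 2321 to 2441 CPM in WT and from 382 to 490 in KO, also had a correlation of 0.81 with S100b, and 0.60 after removal of group means. The sum of the 3 nerve transcription factors, which was nearly all Egr2, had 0.87 and 0.57. The myeloid sum had 0.51 and −0.05. Its single markers reached at most 0.85 over the 14 libraries, for C1qb, and only Csf1r was negative, at −0.79. The pericyte and smooth muscle sum had the same correlation as the fibroblast sum, so the link was not particular to fibroblast markers.

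Mbp had correlations of −0.05 with the fibroblast sum and 0.01 with the RPE sum over the 14 libraries. After removal of group means these were 0.18 and −0.84, so within groups the libraries with more Mbp had a lower RPE sum. The single RPE markers did not all share this. For their deviations from the group means, Mitf had 0.91 and Otx2 0.35 with Mbp. The others were negative, from −0.26 for Best1 to −0.91 for Rrh. The listed gene closest to Mbp over the 14 libraries was Mobp, myelin-associated oligodendrocyte basic protein. Its correlation was 0.80, and 0.91 for the deviations from the group means. With the TMM factors of each set, Mobp was at 64.4 CPM in WT replicate 1, 51.5 in KO replicate 1 of the Ctrl set and 50.3 in CreCtrl replicate 2. These were the 3 libraries with the highest Mbp. On the same scaling Mobp was at 29.2 CPM in Ctrl replicate 1, 14.04 in Ctrl replicate 2, 15.2 in KO replicate 2 of the Ctrl set and 11.7 in WT replicate 2, and under 1 CPM in the other 7 libraries. The libraries with Mobp under 1 CPM still had 39.0 to 72.8 CPM of Mbp. The genes most like Mbp over all 17662 were Tal2 (r = 0.84), which never exceeded 0.903 CPM, Bicral (r = 0.83) and Ppfia3 (r = 0.82).

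Pmp22 had correlations of −0.09 with the fibroblast sum and −0.05 with the RPE sum, and its most alike genes were Rrp7a (r = 0.90), Tomm22 (r = 0.88) and Supt4a (r = 0.86). Among the 4 genes the strongest pairs over the 14 libraries were Sox10 and S100b (r = −0.69) and Mbp and Pmp22 (r = −0.66), and none had a positive correlation above 0.16. After removal of group means these pairs had −0.13 and −0.66, and Pmp22 and Sox10 had 0.55. Correlations without that removal are over 14 libraries that share the group differences, and all of them are descriptions only.

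**Figure D3:**
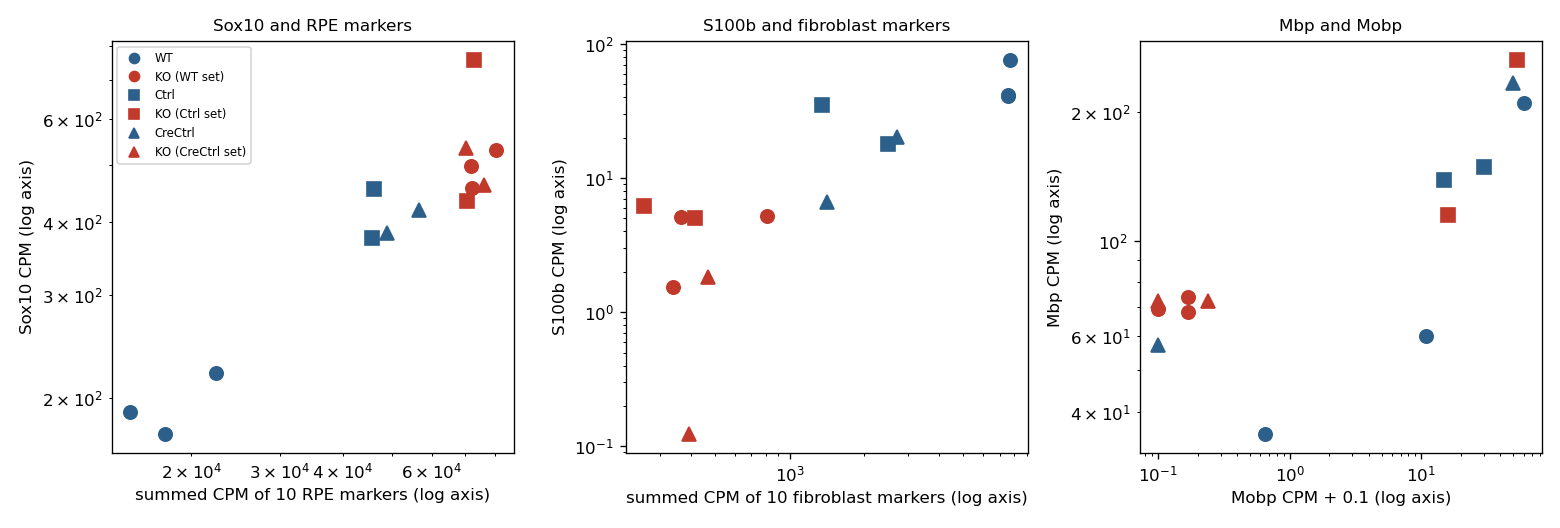
Both axes are logarithmic and in CPM on the scale of the 14 libraries; each point is a library, blue for control and red for KO, with circles for the WT set, squares for the Ctrl set and triangles for the CreCtrl set. Sox10 is plotted against the sum of 10 RPE markers, S100b against the sum of 10 fibroblast markers, and Mbp against Mobp with 0.1 CPM added; the 3 libraries with the highest Mbp are also the 3 with the highest Mobp.

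A further 26 Schwann cell and myelin genes were grouped by role. Against WT, 14 of the 26 passed the filter on low counts, of which 4 were called lower and 0 higher, where 17.6% of all genes were called lower, with a median log2 fold change of −0.67 against −0.08 for all genes. Against Ctrl 15 were tested and 0 called, as for all genes, with a median of −2.54, and of −2.02 without Ctrl replicate 2, which stood apart in these genes. Against CreCtrl 16 were tested, 3 called lower and 0 higher, near the 12.2% of all genes called lower, with a median of −1.15; without CreCtrl replicate 2 it was 1 of 18. Over the 3 sets 23 were tested, 7 called lower and 0 higher, where 15.7% of all genes were called lower, with a median of −1.74 against −0.02 for all genes. Without Ctrl replicate 2 this became 5 of 24 with a median of −1.32, and without CreCtrl replicate 2 it was 7 of 24 with a median of −1.94. These left-out fits of the list were added after the data were seen. A gene can pass the filter through the group in which it is high, so these counts describe the tested genes only.

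Among the myelin structure genes, Prx and Drp2 were called lower against WT. Prx, periaxin of the Schwann cell membrane, fell by 2.91 against WT (SE 0.49, edgeR adjusted p = 0.00211), and its partner Drp2 by 3.07 (SE 1.02, adjusted p = 0.0455). Drp2 fell by 3.75 against CreCtrl (SE 0.66, edgeR adjusted p = 0.0149), while Prx, at −2.13, had an adjusted p of 0.0580. Prx shares 300 exonic bases with the antisense gene Gm15541.

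By mean level Mal and Cnp were the most abundant structure genes not called, although the median of Mal, 4.69 CPM, was under the 4.85 CPM of Cldn19, a claudin of Schwann cells, on the scale of the 14 libraries. With the TMM factors of each set Mal, a raft proteolipid of myelin and of epithelia, reached 458 CPM in Ctrl replicate 2 and 62.0 CPM in WT replicate 2. It was at 27.3 CPM or less in the other libraries. Cnp, a myelin enzyme that many cells express, ranged from 10.7 to 24.95 CPM on the scale of the 14 libraries, with a change of −0.16 over the 3 sets (edgeR adjusted p = 0.476). It shares 154 exonic bases with Dnajc7 on the other strand.

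Of the 3 transcription factors, Egr2, which drives peripheral myelination and is also an immediate-early gene of many cells, was the only one called within a set. It had 72.2, 52.4 and 44.6 CPM in WT and 10.6, 9.13 and 1.60 in KO, a fall of 2.99 (SE 0.57, edgeR adjusted p = 0.00384), and it fell by 3.28 against CreCtrl (SE 0.52, adjusted p = 0.0109). Against Ctrl Egr2 changed by −2.21 (edgeR adjusted p = 0.388). Foxd3, a neural crest factor, was called lower over the 3 sets (edgeR adjusted p = 0.0498), but it never exceeded 1.04 CPM and was at 0 in 9 libraries, so no fold is given. Pou3f1, of promyelinating Schwann cells, was under 1 CPM in all libraries.

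Of the receptors and adhesion genes 0 were called within a set, and 2 were called over the 3 sets. Ngfr, the low-affinity neurotrophin receptor, fell by 1.93 (SE 0.68, edgeR adjusted p = 0.0398), and the sodium channel gene Scn7a, known from nonmyelinating Schwann cells, fell by 3.24 (SE 0.92, adjusted p = 0.0139). Of those not called, Adgrg6, a receptor needed for myelination, was at 4.90 to 15.5 CPM on the scale of the 14 libraries with a change of 0.35 over the 3 sets, and Erbb3, the neuregulin receptor subunit, changed by −1.74. The cadherin gene Cdh19 was at 5.42 to 26.9 CPM and changed by −0.10, and L1cam changed by −1.75 (edgeR adjusted p = 0.0668). Adgrg6 shares 441 exonic bases with an antisense gene and L1cam 100 with Arhgap4, so their counts are less certain. The 3 myelin lipid enzymes were low, with Fa2h at most 0.706 and Ugt8a at most 0.411 CPM, and Gal3st1 reached 2.68 CPM.

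Axon genes, which come with nerve fibres, were low as well. Their 8 genes summed to 33.2 to 44.4 CPM in WT and 1.89 to 5.71 in KO (3 of 4 tested called lower, where 17.6% of all genes were), to 8.66 to 38.5 in Ctrl and 7.82 to 12.3 in KO, and to 7.95 to 17.2 in CreCtrl and 2.11 to 2.71 in KO (3 of 5 tested called lower, where 12.2% of all genes were). Their correlation with S100b was 0.83 over the 14 libraries and 0.03 after removal of group means.

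**Figure D4:**
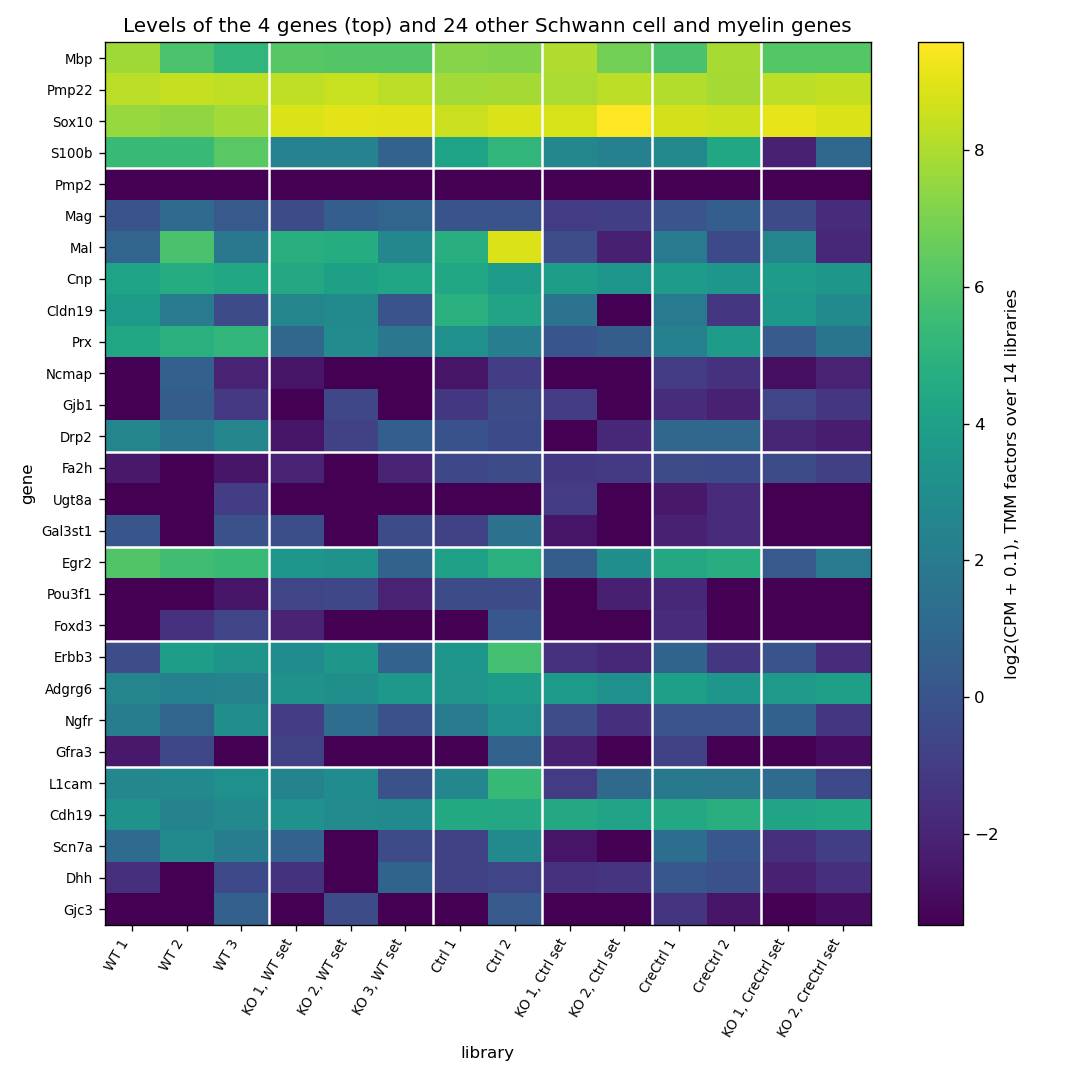
The colour gives log2(CPM + 0.1) on the scale of the 14 libraries for the 4 genes in the top rows and 24 of the 26 other Schwann cell and myelin genes below, by library; white lines separate groups of libraries and roles. Pmp22 and Sox10 are high in all libraries, S100b and Egr2 are lower in the KO libraries, Pmp2 is at 0 in all, and Mal stands out in Ctrl replicate 2.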

How the data were processed

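RPE RNA of 14 mice was sequenced as poly(A) stranded libraries (paired-end, 50 cycles). The authors deposited raw counts per Ensembl gene; the submitters' processing notes name bcl2fastq 2.19, STAR 2.5.2, Cufflinks 2.1.1 and HTSeq 0.11.2, with GRCm38. The strand setting and the annotation release of the counting are not given in the sources used here. Of 42687 genes, 42329 were found in GENCODE M21. Groups came from the labels, and the set of a KO library from the style of its title. The replicates are separate mice.

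Genes kept by filterByExpr were tested with edgeR 4.0.16 (quasi-likelihood, TMM; R 4.3.3, limma 3.58.1) within each set, over the 3 sets with the set as covariate, and for differences between sets, and p-values were adjusted by Benjamini-Hochberg over all genes tested. A call needed an adjusted p under 0.05 and a fold above 1.5. DESeq2 1.42.0, other scalings and filters, a replicate block and left-out libraries were alternatives. Correlations used log2 CPM with a prior count of 2. Exact permutations relabelled libraries within sets, two-sided. The edgeR steps were tested on simulated data. No libraries of a group agreed within sampling noise. Members and lists were chosen with earlier results of these data known. Some listed genes count in the totals but are not reported here. Otherwise the text names the 4 members, the called genes and the 2 most abundant other genes of each nerve role, the first 2 of each marker list, and the 3 genes most like each member. Pmp2, Ncmap, Gjb1, Ugt8a, Opalin, Olig1, Olig2, Ermn, Cldn11, Hapln2, Cldn19, Ednrb, Pax3, C1qb and Glul were chosen after their values were seen. So were the correlations of single listed genes.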

Additional observations from a re-analysis of the deposited data

Results flagged for a closer look

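Erbb3, the neuregulin receptor gene of the Schwann cell list, had a KO effect that differed between the WT and Ctrl sets by 6.86 on the log2 scale (SE 1.78, edgeR adjusted p = 0.0444 for the difference itself, a call that 5.15% of genes passed). It had 10.4 and 50.8 CPM in the Ctrl libraries against 0.250 and 0.172 in KO of that set, and from 0.793 to 15.2 CPM in WT against 1.54 to 10.9 in KO. The 50.8 CPM was in Ctrl replicate 2, the library that stood apart in Schwann cell and myelin genes, and the difference was not tested without it. The KO libraries of the Ctrl set held 4 and 3 counts of Erbb3. No such difference passed the test for Mbp, Pmp22, Sox10 or S100b with edgeR. The groups of 2 or 3 libraries were too small to test single libraries as outliers.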

How the results depend on the processing

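Of the calls on the 4 genes, those between KO and WT (Sox10 and S100b) held under all alternatives run. Scaling by library size alone shifted the median change over all genes (log2) to −0.32 against WT, −0.11 against Ctrl, −0.24 against CreCtrl and −0.29 over the 3 sets, and the share of calls that were higher fell from 44.4% to 28.3% against WT, from 22.1% to 6.13% against CreCtrl and from 39.6% to 15.1% over the 3 sets. It left 1417 genes called higher against WT, 176 against CreCtrl and 678 over the 3 sets, where it called 1 of the 4 genes and turned Pmp22 to −0.0615. Against Ctrl, 1 of the 4 genes (S100b) was called by DESeq2 (1094 genes lower, 17 higher) and with all genes that had a count (1632 lower, 26 higher), and the fit of all 14 libraries called 635 lower and 12 higher. Against CreCtrl, DESeq2 called 0 of the 4 genes and 1084 genes higher, all genes with a count gave 2 of the 4 and 1437 higher, 10 counts in every library gave 0 since S100b was not tested, and the fit of all 14 libraries called 506 lower and 197 higher. Over the 3 sets, 10 counts in every library gave 1 of the 4, and leaving out the WT set gave 0, with 913 genes lower and 37 higher. Without that set the log2 ratios to S100b were 2.93 for Mbp, 3.48 for Pmp22 and 3.52 for Sox10, each with an adjusted exact permutation p of 0.111, a design of too few relabellings to pass 0.05. For the difference between the WT and CreCtrl sets DESeq2 called 1 of the 4 genes. Beyond what an alternative's own construction shows, the cause was not tested.

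Leaving out single libraries gave 0 to 1 of the 4 genes against Ctrl (S100b, without Ctrl replicate 1, adjusted p = 0.0283 by edgeR), with 0 to 500 genes lower and 0 to 12 higher, and 0 to 2 against CreCtrl, with 1063 to 2696 lower and 52 to 2123 higher (1063 and 84 without CreCtrl replicate 2, 1227 and 52 without KO replicate 2 of that set). Mbp turned to 0.42 without WT replicate 1, to −0.33 without KO replicate 1 of the Ctrl set, to 0.28 without CreCtrl replicate 2, and over the 3 sets to 0.0201 without WT replicate 1; its lowest values were −1.06 against WT without WT replicate 3, −1.73 against CreCtrl without CreCtrl replicate 1 and −0.63 over the 3 sets without KO replicate 1 of the Ctrl set (−0.55 without WT replicate 3). Pmp22 against WT turned to 0.0152 without KO replicate 3 of that set and to 0.0154 in the fit of all 14 libraries. The S100b change against CreCtrl ranged from −6.74 to −2.78.

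The labels number the replicates but do not say that numbers pair mice. As a check of pairing, same-numbered KO and control libraries had correlations of deviations of −0.01, 0.07 and 0.19 among WT and their KO, −0.02 with Ctrl and 0.13 with CreCtrl. In all, 3 of the 6 libraries of the WT set correlated best with their own number. With the replicate number as a block, 113 genes were called lower against Ctrl, and against CreCtrl 2 of the 4 genes were called (Mbp at −0.71, edgeR adjusted p = 0.0261) and 1060 genes higher. With 2 or 3 libraries a group, a missed call does not show equal levels, and S100b at a few counts in some KO libraries limits the precision of its fold change.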
